A study of Homo sapiens with 6 samples.

Results

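Zinc enters and leaves the cytosol through members of 2 families of membrane proteins, and 10 of their genes are described here in HEK293T cells: *SLC39A1*, *SLC39A3*, *SLC39A6*, *SLC39A7*, *SLC39A8*, *SLC39A10* and *SLC39A14* of the *SLC39* family, and *SLC30A1*, *SLC30A5* and *SLC30A9* of the *SLC30* family. They were matched by symbol to the merged count table of the study, in which each had 1 row with counts, and are 10 of the 55767 symbols counted in the library tables. HEK293T is a human embryonic kidney line that carries the SV40 large T antigen. RNA-seq was done on 6 libraries of these cells, 3 expressing a nonspecific control hairpin (sh-control) and 3 labelled as expressing a hairpin against *RREB1* (sh-*RREB1*), a zinc finger transcription factor that binds RAS response elements. Both lines were made stable by lentiviral transduction and drug selection and were grown in DMEM with serum, with no other treatment. Nothing in the labels says that the libraries of a group came from separate cultures, so p-values measure the spread between these libraries, which may be technical.

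The SLC39 proteins, also called ZIP, move zinc into the cytosol from outside the cell or from organelles, and some also carry iron, manganese or cadmium. The SLC30 proteins, also called ZnT, move zinc the other way, out of the cell or into the Golgi, vesicles and other compartments. Cytosolic zinc is buffered by metallothioneins, small cysteine-rich proteins, and excess zinc activates the transcription factor MTF1, which binds metal response elements in the promoters of the metallothionein genes and of *SLC30A1*.

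Promoters are shown first for the genes on which the results turn: the 2 members with the highest GC content, *SLC39A1* and *SLC39A3*, the plasma membrane exporter *SLC30A1*, and the metallothionein gene *MT2A*. The windows are RefSeq sequence of GRCh38.p14, run from 250 bases before the start to 50 after it, and are written 5′ to 3′ on the strand of the gene. Capitals mark the core of the metal response element, searched as TGCACNC or TGCGCNC on both strands. The *SLC39A1* window lies on the minus strand at chr1:153968135-153968434 and the *SLC39A3* window on the minus strand at chr19:2740027-2740326. The *SLC30A1* window is on the minus strand at chr1:211579112-211579411, and that of *MT2A* on the plus strand at chr16:56608334-56608633.
SLC39A1: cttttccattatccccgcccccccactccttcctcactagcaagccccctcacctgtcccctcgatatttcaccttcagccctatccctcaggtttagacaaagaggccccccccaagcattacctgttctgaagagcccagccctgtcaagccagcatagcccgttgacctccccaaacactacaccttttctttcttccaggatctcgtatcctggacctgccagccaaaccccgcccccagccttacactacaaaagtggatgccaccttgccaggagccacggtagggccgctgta
SLC39A3: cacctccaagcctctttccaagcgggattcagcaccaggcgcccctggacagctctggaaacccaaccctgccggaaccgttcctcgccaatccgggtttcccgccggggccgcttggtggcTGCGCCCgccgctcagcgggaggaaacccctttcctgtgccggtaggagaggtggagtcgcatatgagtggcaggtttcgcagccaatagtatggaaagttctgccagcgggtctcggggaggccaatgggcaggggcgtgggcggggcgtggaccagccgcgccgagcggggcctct
SLC30A1: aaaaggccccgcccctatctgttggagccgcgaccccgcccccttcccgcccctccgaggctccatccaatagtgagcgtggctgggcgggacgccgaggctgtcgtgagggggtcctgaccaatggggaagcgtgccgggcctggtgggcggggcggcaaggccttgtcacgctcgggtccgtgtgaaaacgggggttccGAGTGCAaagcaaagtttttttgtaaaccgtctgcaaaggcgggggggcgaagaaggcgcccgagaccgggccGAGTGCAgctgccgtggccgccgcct
MT2A: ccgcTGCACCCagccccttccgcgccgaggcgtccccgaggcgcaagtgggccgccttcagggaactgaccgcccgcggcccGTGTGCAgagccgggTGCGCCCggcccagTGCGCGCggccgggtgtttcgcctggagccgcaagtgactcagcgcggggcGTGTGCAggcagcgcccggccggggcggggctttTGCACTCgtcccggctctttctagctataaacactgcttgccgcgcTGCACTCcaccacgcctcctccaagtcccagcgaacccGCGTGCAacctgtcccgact

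The core was found in 6 of the 13 windows of 9 members, each in a different gene, and in 29.6% of 35116 promoters of the same length. *SLC39A14* was not among these 9, since genes of chromosome 8 were left out of the windows. In *SLC30A1* it stood at 2 positions, −49 and 25 from the start, and in *MT2A* at 8. The *SLC39A1* window shown held none, and a second window of that gene held 1. The letters CCACCCC and AAACCAC, parts of the RAS response element to which RREB1 binds, were searched on both strands and were in none of the 9 members' windows. They were in 16.6% and 3.91% of all promoters. A match of these letters is a description and not a binding site, and its absence says only that the letters are not in the window.

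Reads on genes ranged from 12257054 to 33044061 per library, and the smallest library, sh-*RREB1* replicate 3, had 52.1% of its aligned reads at more than one position compared to 3.66% to 7.63% elsewhere. Levels are in CPM, counts per 1000000 reads on genes after TMM scaling, and in RPKM, the same per kb of exon, where genes are compared with each other. *RREB1*, the target of the hairpin, was at 27.1, 25.2 and 26.6 CPM in sh-control against 23.7, 24.6 and 23.2 in sh-*RREB1*. This is a log2 fold change of −0.14 (standard error 0.13), with an adjusted p of 0.486 from edgeR. Every sh-*RREB1* library was below every sh-control library, as in 20% of all genes tested. With each library's trend on GC content and length removed, as described further on, it was −0.36 (95% interval −0.63 to −0.10, adjusted p = 0.0534), and −0.37 (adjusted p = 0.0109) with the replicate block as well. No setting in which its adjusted p was read brought that p below 0.01, so each direction given rests on the labels. With the trend removed and a library left out, where the adjusted p was not read, the log2 fold change of *RREB1* was −0.26 to −0.44. Of the HEK293 markers, *VIM*, *NEFL*, *NEFM*, *KRT8* and *KRT18* were present in every library, and the RPKM sum of 7 such markers was 90.2 to 105 in sh-control and 149 to 174 in sh-*RREB1*. Most of that sum was *VIM*, with a mean of 65.7 RPKM in sh-control and 110 in sh-*RREB1*. *VIM*, *NEFL*, *NEFM* and *PAX2* were higher with no overlap, as were 21.1% of all genes tested, while *KRT8*, *KRT18* and *LHX1* overlapped. *PAX2*, a kidney developmental gene, was low, at 0.0935 to 0.131 CPM in sh-control against 0.306 to 0.476 in sh-*RREB1*. The fibroblast marker *COL1A2* was at 3.94 CPM in sh-*RREB1* replicate 2 and at most 0.0793 CPM in the other libraries. Another, *COL1A1*, was at 0.348 to 0.686 CPM in sh-control against 2.09, 2.64 and 0.952 in sh-*RREB1*, with no overlap. The RPKM sum of 5 fibroblast markers was 2.46 in sh-*RREB1* replicate 2, compared to 0.727 to 0.864 in sh-control and 0.524 to 0.833 in the other libraries labelled sh-*RREB1*. The sum of 5 lymphocyte markers was 0.214 to 0.611 in sh-control and 0.266 to 0.513 in sh-*RREB1*, with *MS4A1* at 0 in every library. The part of these in the results below was not tested, and the members' values without sh-*RREB1* replicate 2 follow their own.

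All 10 zinc transporter genes were expressed in every library, and none of them was called different between the groups. Calls needed both an adjusted p below 0.01 and more than a 2-fold difference, which 3.41% of the 23304 genes tested met, 2.71% higher and 0.699% lower in sh-*RREB1*. The members' log2 fold changes lay between −0.30 (*SLC30A5*) and 0.60 (*SLC39A3*), with a median of 0.10 compared to 0.01 for all genes tested. Their adjusted p ran from 0.158 to 0.883, and 0 of the 10 had an unadjusted p below 0.05 with edgeR or with DESeq2, compared to 34.4% and 31.9% of all genes tested. The 95% interval of 9 members stayed within 1 on the log2 scale, narrower than a 2-fold change either way, and that of *SLC39A3* reached 1.26. With an adjusted p below 0.05 and no minimum fold, 19.6% of all genes passed and still 0 members. RNA of whole cultures was measured, so more cells expressing a gene and more RNA per cell cannot be told apart.

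**Figure D1:**
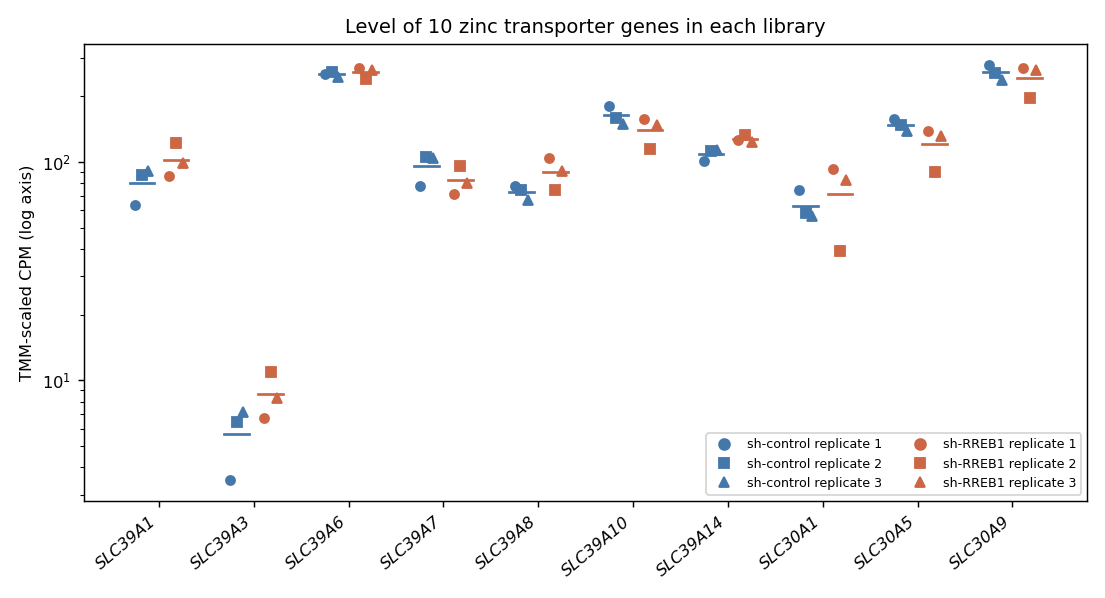
TMM-scaled CPM (log axis) of the 10 members in each of the 6 libraries, with sh-control in blue, the libraries labelled sh-RREB1 in orange, a symbol for each replicate number and a bar at the group mean. SLC39A6 and SLC30A9 stand highest and SLC39A3 lowest in both groups, and the groups overlap for all members but SLC39A14 and SLC30A5.

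Per kb of exon, *SLC39A6* was the most abundant of the 10 in sh-control at 68.6 ± 1.72 RPKM (SD, n = 3), followed by *SLC30A9* at 35.8 ± 2.82 RPKM. *SLC30A5* at 27.2 ± 1.62, *SLC39A7* at 23.9 ± 4.0, *SLC39A1* at 23.7 ± 4.35 and *SLC39A10* at 23.6 ± 2.30 RPKM came next, and neighbours among these 4 overlapped in range. *SLC39A14* was at 15.8 ± 1.02, *SLC30A1* at 10.7 ± 1.64 and *SLC39A8* at 8.61 ± 0.670 RPKM, with no overlap from one to the next. *SLC39A3* was lowest at 1.29 ± 0.441 RPKM. *SLC39A6* thus took 28.7% of the RPKM of all 10 in sh-control and 29.1% in sh-*RREB1*, and *SLC39A3* took 0.537% and 0.825%. In sh-*RREB1* the same 2 genes led, at 69.9 ± 4.27 and 33.8 ± 5.74 RPKM, and *SLC39A1* moved from the fifth place to the third at 30.2 ± 5.48 RPKM. Neighbours from the second to the seventh place overlapped there. So did the eighth, *SLC30A1* at 6.62 to 15.8 RPKM, and the ninth, *SLC39A8* at 8.74 to 12.3 RPKM. The order within each of these sets is not resolved by 3 libraries.

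Among importers of the plasma membrane, *SLC39A1* (ZIP1, ENSG00000143570, chromosome 1, 153959099 to 153968184), a widely expressed zinc importer, was at 63.6, 87.0 and 90.7 CPM in sh-control against 86.0, 123 and 98.7 in sh-*RREB1*, each in the order of replicates 1, 2 and 3. The groups overlapped, since sh-*RREB1* replicate 1 lay below 2 sh-control libraries, and the log2 fold change was 0.35 (standard error 0.18, 95% interval −0.05 to 0.75, adjusted p = 0.197). *SLC39A3* (ZIP3, ENSG00000141873, chromosome 19, 2732204 to 2740028), a close relative, had 3.48, 6.44 and 7.17 CPM in sh-control (80, 175 and 230 reads). Levels in sh-*RREB1* were 6.73, 10.9 and 8.33 CPM (167, 286 and 105 reads). Here too sh-*RREB1* replicate 1 lay below the highest sh-control library, and the log2 fold change of 0.60 had the largest standard error of the 10, 0.29 (95% interval −0.06 to 1.26, adjusted p = 0.182). In *SLC39A3*, 9.39% of the exonic bases are shared with an overlapping gene of the same strand in the annotation used here, so part of its reads could be counted on neither.

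*SLC39A6* (ZIP6, ENSG00000141424, chromosome 18, 36108531 to 36129385) and *SLC39A10* (ZIP10, ENSG00000196950, chromosome 2, 195575977 to 195737702) belong to the LIV-1 subfamily, and their proteins can form a heteromer that imports zinc at the cell surface. *SLC39A6* was at 254, 258 and 246 CPM in sh-control against 270, 240 and 263 in sh-*RREB1*. The ranges were interleaved and the log2 fold change was 0.03 (standard error 0.10, 95% interval −0.19 to 0.25, adjusted p = 0.883). *SLC39A10* was at 181, 160 and 150 CPM in sh-control against 157, 115 and 148 in sh-*RREB1*. Its low value came from sh-*RREB1* replicate 2, and the log2 fold change of −0.22 (standard error 0.14, adjusted p = 0.304) moved to −0.10 without that library.

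*SLC39A8* (ZIP8, ENSG00000138821, chromosome 4, 102251080 to 102431258) and *SLC39A14* (ZIP14, ENSG00000104635, chromosome 8, 22367278 to 22434129) carry manganese and iron as well as zinc. *SLC39A8* was at 77.7, 74.7 and 66.7 CPM in sh-control against 104, 74.1 and 90.9 in sh-*RREB1*. A single library, sh-*RREB1* replicate 2, fell into the range of sh-control, and the log2 fold change was 0.30 (standard error 0.14, 95% interval −0.03 to 0.62, adjusted p = 0.178). *SLC39A14* was at 101, 113 and 114 CPM in sh-control against 126, 134 and 123 in sh-*RREB1*. It was the 1 member with every sh-*RREB1* library above every sh-control library, as were 21.1% of all genes tested. The difference was small, 0.23 on the log2 scale (standard error 0.10, 95% interval −0.01 to 0.46, adjusted p = 0.158), which is a fold of 1.17.

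*SLC39A7* (ZIP7, ENSG00000112473, chromosome 6, 33200305 to 33204439) releases zinc from the endoplasmic reticulum and Golgi. Levels were 77.4, 106 and 104 CPM in sh-control against 71.4, 96.4 and 80.3 in sh-*RREB1*. Replicate 1 was the lowest library of each group, the groups overlapped, and the log2 fold change was −0.21 (standard error 0.16, 95% interval −0.58 to 0.15, adjusted p = 0.395). The gene overlaps *RXRB* on the other strand, and reads on the opposite strand were at most 2.80% of those on both strands.

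On the side of zinc removal, *SLC30A1* (ZnT1, ENSG00000170385, chromosome 1, 211571568 to 211579161) exports zinc across the plasma membrane and is induced by zinc through MTF1. Levels were 74.2, 58.5 and 56.5 CPM in sh-control, a span much narrower than the 93.3, 39.0 and 82.5 CPM of sh-*RREB1*. Sh-*RREB1* replicates 1 and 3 lay above and replicate 2 below all sh-control libraries. The log2 fold change was 0.18 (standard error 0.28, 95% interval −0.46 to 0.82, adjusted p = 0.702). It was 0.48 (adjusted p = 0.0667) without sh-*RREB1* replicate 2, the library with the *COL1A2* reads, and −0.06 (adjusted p = 0.917) without replicate 1.

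*SLC30A5* (ZnT5, ENSG00000145740, chromosome 5, 69093991 to 69131069) loads zinc into the early secretory pathway, where enzymes such as alkaline phosphatase receive it. Levels were 157, 148 and 139 CPM in sh-control against 139, 90.5 and 132 in sh-*RREB1*. The highest sh-*RREB1* library, at 139.1 CPM, lay just under the lowest sh-control library, at 139.4 CPM, so the groups did not overlap, as in 20% of all genes tested in that direction. The log2 fold change was −0.30 (standard error 0.16, 95% interval −0.66 to 0.07, adjusted p = 0.228), and without replicate 2 of sh-*RREB1* it was −0.13. *SLC30A9* (ZnT9, ENSG00000014824, chromosome 4, 41990502 to 42090461), which exports zinc from mitochondria, was at 279, 255 and 239 CPM in sh-control against 270, 196 and 265 in sh-*RREB1*. Only replicate 2 of sh-*RREB1* stood outside the range of sh-control, for a log2 fold change of −0.08 (standard error 0.14, adjusted p = 0.739).

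Without sh-*RREB1* replicate 2, the library with the *COL1A2* reads, the log2 fold change was 0.20 for *SLC39A1*, 0.39 for *SLC39A3*, 0.08 for *SLC39A6*, −0.34 for *SLC39A7*, 0.42 for *SLC39A8*, 0.19 for *SLC39A14* and 0.06 for *SLC30A9*. None of the 10 members was called there, where 136 of 22575 genes tested were. The members' adjusted p ran from 0.0518 (*SLC39A8*) to 0.750 (*SLC30A9*).

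The members did not vary alike within the groups. The 6 genes with a GC content of 43.6% or less in their exons (*SLC39A6*, *SLC39A8*, *SLC39A10*, *SLC30A1*, *SLC30A5* and *SLC30A9*) were each lowest in replicate 2 and highest in replicate 1 among the libraries labelled sh-*RREB1*. The 4 genes with 49.0% or more (*SLC39A1*, *SLC39A3*, *SLC39A7* and *SLC39A14*) were each lowest in replicate 1 among the sh-control libraries and highest in replicate 2 among those labelled sh-*RREB1*. This grouping was chosen after the values were seen. The medians of all expressed genes differed likewise. Relative to the mean over libraries, the median log2 level of the top GC decile of 14331 expressed genes was −1.30 in sh-control replicate 1 and 0.85 in sh-*RREB1* replicate 2. That of the bottom decile was 0.31 and −0.43 in these 2 libraries.

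Set against genes of like GC content, the members' places changed. *SLC39A3*, with 59.3% GC, had a log2 fold change of 0.60 where the median of its GC decile was 0.61. *SLC39A1*, with 58.0% GC, was 0.26 below the same median, at percentile 29.9 of that decile, although its own value was above 0. *SLC39A7* was 0.53 below the median of its decile, at percentile 11.0. *SLC39A8* was 0.52 above that of its decile, at percentile 89.0, *SLC30A1* 0.43 above at percentile 86.0, *SLC39A14* 0.29 above and *SLC39A6* 0.27 above. *SLC30A9* was 0.15 above its median, at percentile 67.2, although its own value was below 0. *SLC39A10* and *SLC30A5* were within 0.07 of their medians.

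The same was fitted by removing from each library its trend on GC content and length. The groups differ in that trend, so a true difference that follows GC content cannot be told apart from it and may also be removed. Called genes were then 3.02% of all genes and again 0 of the 10 members, and all 10 intervals stayed within 1 on the log2 scale. Standard errors were smaller in 10 of 10 members and ran from 0.0759 to 0.203. With the trend removed *SLC39A7* was at 105, 108 and 102 adjusted CPM in sh-control and at 70.6, 76.8 and 75.2 in sh-*RREB1*. The groups stood apart, and its log2 fold change of −0.50 (standard error 0.08, 95% interval −0.67 to −0.33, adjusted p = 0.00112) was the only one of the 10 with an adjusted p below 0.01, as 11.4% of all genes had. Without sh-control replicate 2 that p was 0.0101, and without sh-*RREB1* replicate 3 it was 0.0110.

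At an adjusted p below 0.05, which 22.1% of all genes passed after the trend was removed, 3 further members passed. *SLC39A8* had adjusted levels of 69.8, 72.7 and 65.5 CPM in sh-control and 108, 78.2 and 96.7 in sh-*RREB1*, a log2 fold change of 0.44 (adjusted p = 0.0158). *SLC39A6* had 221, 237 and 237 CPM against 278, 281 and 283, a log2 fold change of 0.28 (adjusted p = 0.0220). *SLC39A1* turned direction, with 114, 96.8 and 91.8 CPM in sh-control and 75.4, 83.1 and 82.1 in sh-*RREB1*, a log2 fold change of −0.33 (adjusted p = 0.0303). These 3 each rose above 0.05 in some fits that left out a library, *SLC39A8* without sh-control replicate 3 (0.0620) or sh-*RREB1* replicate 1 or 3 (0.0621 and 0.0693). *SLC39A6* did so without sh-control replicate 2 or 3 (0.0685 and 0.0706) or sh-*RREB1* replicate 3 (0.0917), and *SLC39A1* without sh-control replicate 1 or 2 (0.0541 and 0.0664) or sh-*RREB1* replicate 1 or 3 (0.107 and 0.0929). After the trend was removed, 4 members had every sh-*RREB1* library above every sh-control library (*SLC39A6*, *SLC39A8*, *SLC39A14* and *SLC30A9*), and 2 had every one below (*SLC39A1* and *SLC39A7*). All genes tested gave 17.7% and 21.1%. *SLC39A3* also changed sign, to −0.19 (adjusted p = 0.356), and *SLC30A5* came to −0.07 (adjusted p = 0.634). *SLC30A1* stayed split, at 93.6, 46.5 and 89.2 adjusted CPM in sh-*RREB1* against 54.8 to 62.8 in sh-control, with a log2 fold change of 0.41 (adjusted p = 0.184). Without sh-*RREB1* replicate 2 it was 0.67 (adjusted p = 0.00106), still under the 2-fold threshold.

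**Figure D2:**
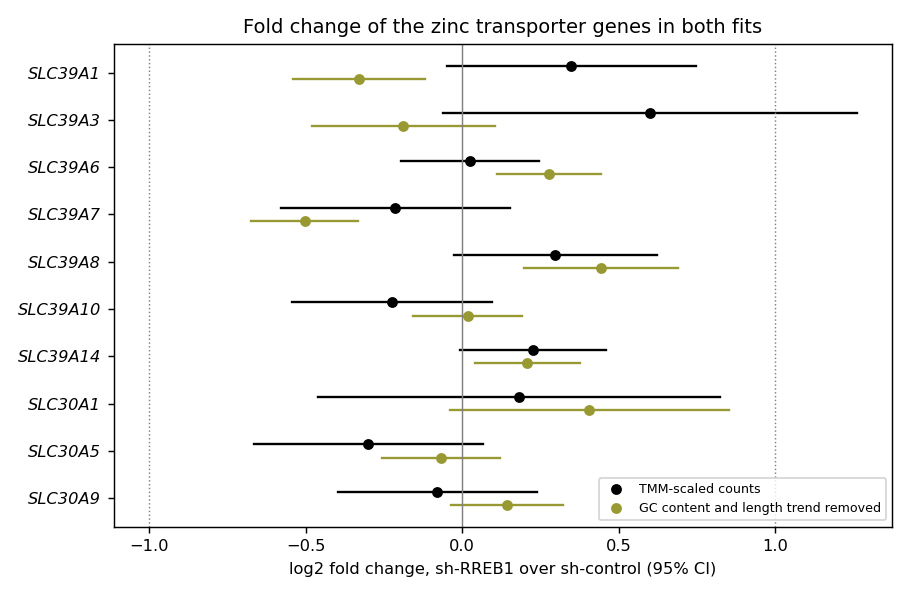
Log2 fold change of sh-RREB1 over sh-control for each member with its 95% confidence interval, from TMM-scaled counts (black) and with the GC content and length trend removed (olive). Dotted lines mark the 2-fold threshold. In the first fit all 10 intervals include 0, and in the second SLC39A7 lies lowest at −0.50 with an interval wholly below 0.

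Of the whole ZIP family of 14 genes, the members included, 13 passed the filter of 10 reads over all libraries, and 1 was called (3.41% of all genes tested were). This was *SLC39A4*, the intestinal zinc importer, at 1.13, 1.62 and 1.84 CPM in sh-control against 3.55, 4.13 and 3.41 in sh-*RREB1*, from 26 to 59 and 43 to 108 reads. The groups did not overlap, as in 21.1% of all genes tested in that direction, with a log2 fold change of 1.26 (standard error 0.23, adjusted p = 0.00912). It was called in only 1 of the 6 fits that leave out a library, that without sh-control replicate 1 (adjusted p = 0.00571), and the adjusted p was 0.0479 without sh-control replicate 2, 0.0147 without sh-control replicate 3, and 0.0275, 0.0307 and 0.0379 without sh-*RREB1* replicates 1, 2 and 3. In these 5 fits the log2 fold change was 1.17 to 1.39. Calls over all genes also fell, to 9, 383, 25, 136 and 8 in these fits, in the same order. They numbered 1117 without sh-control replicate 1 and 794 with every library. The exons of *SLC39A4* have 60.7% GC, and with the trend removed the log2 fold change was 0.34 (adjusted p = 0.210). *SLC39A13*, which serves the secretory pathway in connective tissue, has 62.1% GC and was at 1.39, 3.27 and 3.77 CPM in sh-control against 7.01, 9.86 and 6.66 in sh-*RREB1*. Its log2 fold change was 1.47 (adjusted p = 0.0191) and 0.43 (adjusted p = 0.0535) with the trend removed. *SLC39A9*, of the Golgi and plasma membrane, was at 165, 167 and 162 CPM in sh-control against 116, 114 and 123 in sh-*RREB1*. Its groups did not overlap, as in 20% of all genes tested in that direction. The log2 fold change, −0.49 (standard error 0.09, adjusted p = 0.0109), met neither threshold, and it was −0.33 (adjusted p = 0.0120) with the trend removed. *SLC39A11* had 0.19 (adjusted p = 0.526).

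Of the 10 ZnT genes, 8 passed the filter and 0 were called by edgeR, 2 of them having an unadjusted p below 0.05 (34.4% of all genes had), and 1 was called by DESeq2. That gene was *SLC30A10*, a manganese exporter, at 1.78, 1.95 and 1.59 CPM in sh-control against 5.40, 3.48 and 3.49 in sh-*RREB1*. Every sh-*RREB1* library was higher, as in 21.1% of all genes tested, for a log2 fold change of 1.23 (standard error 0.24, adjusted p = 0.0112). With 43.2% GC it did not shrink when the trend was removed, and then passed both thresholds at 1.38 (adjusted p = 0.000963). *SLC30A4*, which loads zinc into vesicles, was at 33.1, 27.4 and 30.3 CPM in sh-control against 24.1, 22.2 and 24.3 in sh-*RREB1*, a log2 fold change of −0.36 (adjusted p = 0.0961). With the trend removed that was −0.13 (adjusted p = 0.363). *SLC30A6*, the partner of *SLC30A5* in the early secretory pathway, had 0.33 (adjusted p = 0.164) and 0.57 (adjusted p = 0.000463) with the trend removed, and *SLC30A7* of the Golgi had −0.28 (adjusted p = 0.368). Summed over the family, RPKM of the ZIP genes were 184 to 200 in sh-control and 193 to 196 in sh-*RREB1*. Those of the ZnT genes were 96.0 to 114 and 74.95 to 116, the lowest in sh-*RREB1* replicate 2. The ratio of the sums was 1.62 to 2.03 in sh-control and 1.67 to 2.61 in sh-*RREB1*, so it overlapped.

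Of 11 metallothionein genes, 7 had 0 reads in every library and 3 passed the filter. Of these 1, *MT2A*, was called higher, as were 2.71% of all genes tested. The RPKM sum of the 11 was low, 1.01 to 2.53 in sh-control and 7.49 to 7.95 in sh-*RREB1*, and the groups did not overlap. Single genes were higher with no overlap in 21.1% of all tested. Most of the sum in sh-*RREB1* was *MT2A*, with a mean of 5.25 RPKM there and 0.964 in sh-control. *MT2A* (ENSG00000125148, chromosome 16, 56608584 to 56609497), whose promoter is shown above, was at 0.435, 0.993 and 1.22 CPM in sh-control, with 10, 27 and 39 reads. In sh-*RREB1* it reached 5.0, 5.05 and 4.36 CPM, with 124, 132 and 55 reads. The groups stood far apart, and *MT2A* passed both thresholds with a log2 fold change of 2.41 (standard error 0.31, adjusted p = 0.00349), a fold of 5.32 with a 95% interval from 3.26 to 8.69. With the trend removed it was 2.16 (adjusted p = 0.000114). The call was lost without sh-control replicate 2 (adjusted p = 0.0321) and without sh-*RREB1* replicate 1, 2 or 3 (0.0167, 0.0127 and 0.0227), with log2 fold changes of 2.38 to 2.47. Most genes lost their call in these fits too. Over all genes 9, 25, 136 and 8 were called there, in the same order, compared to 794 with every library.

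*MT1F* was at 0.435, 0.809 and 1.09 CPM in sh-control against 1.65, 2.26 and 2.22 in sh-*RREB1*, a log2 fold change of 1.34 (adjusted p = 0.0239). *MT1X* was at 0.522, 1.62 and 1.06 CPM and at 2.42, 2.03 and 2.62 CPM, a log2 fold change of 1.11 (adjusted p = 0.0579). Both were higher in all 3 sh-*RREB1* libraries, as were 21.1% of all genes tested, and neither was called. With the trend removed the log2 fold change was 0.82 (adjusted p = 0.0299) for *MT1F* and 0.88 (adjusted p = 0.0568) for *MT1X*. Metallothionein genes are near-identical in places, and reads that fit several of them were not counted, so the division among them is uncertain. *MTF1* itself was at 36.6, 33.8 and 37.9 CPM in sh-control against 30.1, 41.0 and 40.7 in sh-*RREB1*, a log2 fold change of 0.05 (adjusted p = 0.868) that changed sign in some settings. Of the other zinc handling genes, *TMEM163*, a vesicle zinc transporter, had −0.44 (adjusted p = 0.232) and *ATP2C1*, a calcium and manganese pump of the Golgi, −0.09 (adjusted p = 0.669).

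**Figure D3:**
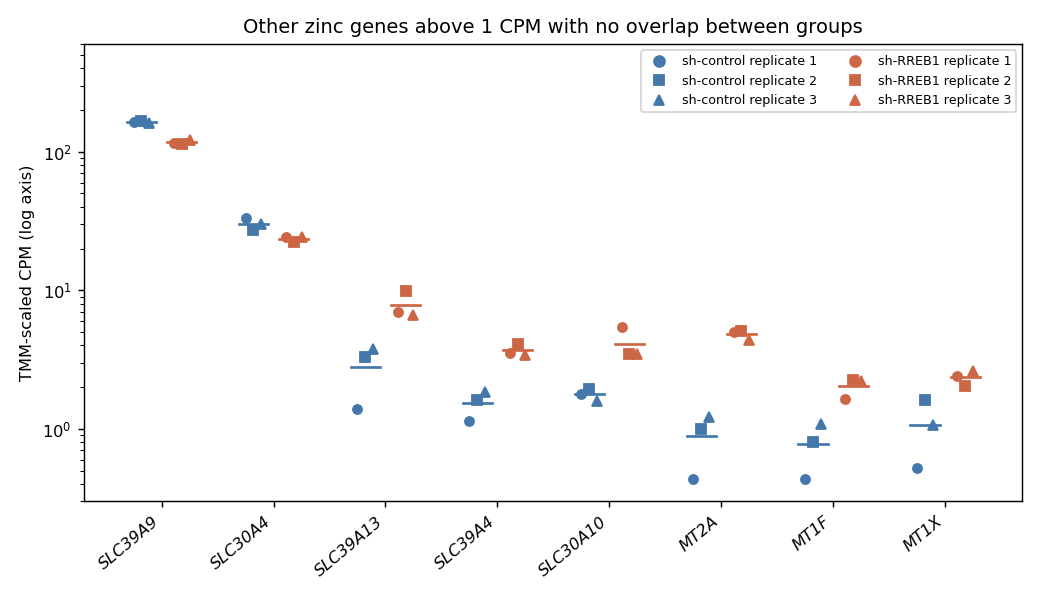
TMM-scaled CPM (log axis) in each of the 6 libraries for the other genes of the ZIP, ZnT and metallothionein lists with 1 CPM or more on average and groups that did not overlap, with sh-control in blue, sh-RREB1 in orange and a bar at each group mean. SLC39A9 and SLC30A4 are lower in sh-RREB1 and the other 6 are higher, MT2A by the largest fold. SLC39A11, SLC30A6 and SLC30A7 also had over 1 CPM on average but overlapped, and are not shown. Of all genes tested, 21.1% were higher and 20% lower with no overlap.

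Carriers of other metals were given as a comparison. Of 10 genes of iron, copper and manganese transport, all were tested and 0 were called, and 3 had an unadjusted p below 0.05 with edgeR and 3 with DESeq2, near the 34.4% and 31.9% of all genes. The 3 of edgeR, named after their values were seen, were *ATP7A*, a copper pump, at −0.76 (adjusted p = 0.00492, under the 2-fold threshold), *SLC40A1*, the iron exporter, at −0.56 (adjusted p = 0.0483), and *SLC25A37*, a mitochondrial iron importer, at 0.32 (adjusted p = 0.109). The list's median log2 fold change was −0.13. With the trend removed it was −0.0042, *SLC40A1* was at −0.31 (adjusted p = 0.167), *ATP7A* at −0.59 (adjusted p = 0.00090) and *SLC25A37* at 0.33 (adjusted p = 0.0341).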

How the data were processed

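RNA-seq counts of 6 libraries of HEK293T cells were used, 3 sh-control and 3 labelled sh-*RREB1*. The authors aligned reads to hg38 with STAR, per the labels, and deposited raw read counts per gene, without normalization, with a merged table that held the same counts in sh-control. The kit was a stranded one for total RNA, and only counts on the gene's own strand were taken. Symbols, positions, lengths and GC content were those of a later Gencode annotation of GRCh38. Where identifiers shared a symbol, that with most reads was kept. Genes with at least 10 reads over the 6 libraries were fitted on condition alone by the quasi-likelihood method of edgeR 4.0.16 (R 4.3.3) after TMM scaling, and p-values were adjusted over all genes by Benjamini and Hochberg's method. The study's thresholds were used, and DESeq2 1.42.0, which it names, was an alternative. For the trend on GC content and length, natural splines (5 degrees of freedom) were fitted in each library to genes averaging over 0 log2 CPM, and entered as an offset. The closest libraries, sh-control replicates 2 and 3, differed with a chi-square of 4.74 per degree of freedom over genes, above sampling noise, so none were merged. Counts on 58037 identifiers gave 12257054 to 33044061 reads per library, and precision was that of 3 libraries per group. No exact permutation test of 3 against 3 can fall below p = 0.1, so none was used. The members and gene lists were chosen with earlier results of these data known. The named genes are *RREB1*, the 10 members, every other tested gene of the ZIP, ZnT, metallothionein and zinc handling lists that was called or averaged at least 1 CPM, and those of the iron and copper list that were called, of which there were none. 3 genes of that list were named after their values were seen. Markers were read to check the cell type. The ChIP-seq and protein experiments were not analysed here.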

Additional observations from a re-analysis of the deposited data

How the results depend on the processing

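None of the 10 members was called under any of the alternatives, which were other scalings, other filters, DESeq2, both strands together, the replicate block, removal of the GC content and length trend, an adjusted p of 0.05 with no minimum fold, and each library left out. Over all genes, 9 were called without sh-control replicate 2, and 25, 136 and 8 without sh-*RREB1* replicate 1, 2 or 3. Fits with so few calls could hardly have called a member, so its absence there carries little weight. Directions were not all stable. Removing the trend turned *SLC39A1* to −0.33, *SLC39A3* to −0.19, *SLC39A10* to 0.017, *SLC30A9* to 0.14 and *ATP2C1* to 0.16, and with the replicate block as well they were −0.33, −0.18, 0.016, 0.14 and 0.16. With the trend removed and a library left out, *SLC39A1* was −0.23, −0.35 and −0.39 without sh-control replicate 1, 2 or 3 and −0.28, −0.35 and −0.34 without sh-*RREB1* replicate 1, 2 or 3. In the same order *SLC39A3* was −0.22, −0.17, −0.17, −0.087, −0.27 and −0.21, and *SLC30A9* was 0.11, 0.17, 0.14, 0.17, 0.17 and 0.10. *SLC39A10* was 0.015, 0.026, −0.00090, 0.010, 0.070 and −0.014. Leaving out a library without it gave −0.019 to 0.076 for *SLC39A6*, −0.057 to 0.48 for *SLC30A1*, −0.16 to 0.056 for *SLC30A9* and −0.030 to 0.18 for *MTF1*. Upper-quartile scaling gave −0.068 for *SLC39A6* and −0.051 for *MTF1*, and library size alone 0.0044 for *SLC30A9*. The cause was not tested.

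Genes called among all numbered 794, and 1801 with a minimum of 1 read, 1647 with DESeq2, 4568 at an adjusted p of 0.05 with no minimum fold, and 8 to 1117 with a library left out. The 1 call in the ZIP family (*SLC39A4*) became 2, with *SLC39A13*, under a minimum of 1 read or DESeq2, 3, with *SLC39A9*, at the looser threshold, 0 with both strands together or the trend removed, and 0 to 2 with a library left out. The ZnT family gained 1 call, *SLC30A10*, with library size alone, a minimum of 1 read, DESeq2, the trend removed or the looser threshold. Metallothioneins had 2 calls, *MT2A* and *MT1F*, with a minimum of 1 read, DESeq2 or the looser threshold, and 0 to 1 with a library left out, and the iron and copper list 2 at the looser threshold.

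The replicate numbers gave no clear pairing of the libraries, since the deviations of same-numbered libraries from their group means correlated at 0.50, 0.43 and −0.28 across 14331 genes. Whether libraries of the same number shared a culture or batch cannot be told from these values. Not every library was closest to its own number, as sh-control replicate 3 correlated with sh-*RREB1* replicate 2 at 0.56. With the replicate block 1686 genes were called, 0 members, 2 ZIP genes, 1 ZnT gene and 2 metallothioneins. With the block and the trend removed 0 ZIP genes and 1 ZnT gene were called.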
